A study of Mus musculus with 4 samples.

Results

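L1MA and L1MB elements are fragments of old long interspersed element-1 (LINE-1) retrotransposons. Their members here are the LINE loci whose repeat name begins with L1MA or L1MB in the mm9 repeat annotation. The element tables of the 4 libraries together list 14431 such loci, 6094 of them L1MA and 8337 L1MB, of 145916 LINE loci in all. With the tables of intervals flanking each element, 33241 L1MA and L1MB loci are listed at least once, 24194 with an upstream and 24087 with a downstream interval.

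RNA-seq compared WT with Lsh-/- mice of strain C57BL/6J in 2 settings, with 1 library per group. WT fibroblasts and Lsh-/- fibroblasts were tail-tip cells of adult mice, cultured as SV40-transformed lines, so each stands for 1 line. The others were WT and Lsh-/- whole embryos at E13.5, a mixture of tissues. How many embryos made up a library is not given in the sources used here. Lsh, encoded by Hells, is a helicase of the SNF2 family that is needed for DNA methylation of repeats, and the labels give no other allele or treatment for any group. The study's methods name heterozygous and homozygous Lsh embryos, whereas the labels call the embryo control WT, the name used here. The study asked whether repeats that lose methylation without Lsh become transcribed. As no group has a replicate, no difference between libraries has a replicate check, no test was made, and each interval given covers counting error or the spread over loci only.

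A complete LINE-1 carries an internal promoter, 2 open reading frames and a polyadenylation signal, and copies itself through an RNA that is reverse transcribed at its new site. New copies are usually cut short at the end that holds the promoter. L1MA and L1MB elements were inserted in early mammals, long before the mouse lineage arose, and are known as immobile fragments that carry many mutations. The L1Md families are the young LINE-1 elements of the mouse, some of which still move. Old fragments differ enough from one another for reads to be placed uniquely. Because most lie inside genes, RNA counted on them can be part of a longer transcript.

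The listed members had a median width of 232 bp and a largest width of 4681 bp, against a median of 996 bp for L1Md loci. The widest was an L1MA6 element at chr6:74801616-74806296 outside genes, with 1 count in Lsh-/- fibroblasts and 0 counts in the other 3 libraries. An L1MB2 element of 2996 bp at chr1:38170408-38173403, in an intron of Rev1, which encodes a translesion DNA polymerase, had 8, 4, 4 and 3 counts in WT fibroblasts, Lsh-/- fibroblasts, WT embryos and Lsh-/- embryos. All further sets of 4 counts follow this order. The third widest, an L1MA9 element of 2599 bp at chr1:113742916-113745514, lay outside genes and had 15, 0, 19 and 14 counts.

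CCGG, the site that the methylation-sensitive enzyme HpaII cuts, was rare in these elements. It was searched in the mm9 sequence of each locus, where it reads the same on both strands. At least 1 site was present in 1114 of 14422 members with a sequence, or 7.72%, against 7.39% of L1MC and L1MD loci, 12.01% of Lx7 to Lx10 loci, 73.3% of L1Md loci and 19.1% of all LINE loci. Per kb of sequence, members held 0.289 CCGG sites and L1Md loci 1.18. The median GC content of members was 37.3% and their median CpG density 5.75 per kb, against 42.8% and 8.09 per kb for L1Md loci. No CpG at all was present in 29.6% of members and in 4.18% of L1Md loci. Methylation itself was not analysed here.

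The CCGG sites of 4 loci described below by their counts are printed here. The 30 bases around the first site of each are shown with the site in capitals, on the strand of the element and from its 5′ to its 3′ end, from mm9. The L1MA5 and L1MB2 elements lie on the + strand and the other two on the - strand. They show positions at which an HpaII-based assay could read such loci, at the member with the most counts among those above 5 in Lsh-/- fibroblasts, at 1 of the members with the highest counts in embryos, and at 2 members that were lower in both Lsh-/- libraries.
L1MA5, chr8:30635012-30635041: gaagggccatcatCCGGaatgcaaatgtca
L1MB2, chr1:37474049-37474078: actgggctcaaaaCCGGccccaccatgcat
L1MB7, chr10:9483768-9483797: aggcacatacaccCCGGggaactgaaaacc
L1MB8, chrX:166420573-166420602: acaatgcaaaaagCCGGacaaaaggtgttg

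The 6 tables of a library together held from 19216257 to 33904311 counts. Counts over exons of Hells, taken from LINE elements and flanking intervals, were 7971, 6356, 3198 and 2110. Scaled ratios of Lsh-/- to WT were 0.772 in fibroblasts and 0.685 in embryos. Where the deletion lies in Hells was not matched to these intervals, so the counts check no label. Of 10 fibroblast markers, 8 had a LINE element or interval over an exon, and 7 had at least 10 counts in each fibroblast library. Col1a1 had 22146 and 14051 counts and Vim 110360 and 73319 in WT and Lsh-/- fibroblasts, while Col3a1 had 4188 and 9082, Pdgfrb 1834 and 3331, Dcn 11 and 42 and Lum 0 in both. The muscle list had 1 count in WT and 403 in Lsh-/- fibroblasts, of which Myod1, a muscle regulator, gave 0 and 363. The neuronal list had 854 and 913 counts in WT and Lsh-/- fibroblasts, of which Stmn2 gave 2 and 493 and Tubb3 848 and 410. In embryos the hepatic list had 3165 counts in WT and 376 in Lsh-/-. The neuronal list had 2003 and 1314 there, the epithelial list 774 and 526 and the haematopoietic list 3112 and 2685. The muscle list had 13097 and 13449 and the erythroid list 215 and 246 in these embryos. LINE elements on the Y chromosome had 1, 462, 3100 and 2720 counts. The part of these differences in the values below was not tested. In such bulk samples, fewer cells of a type and less RNA per cell cannot be told apart.

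Members took a similar part of the LINE counts in every library. They held 39918 of 477719 counts on LINE elements in WT fibroblasts, or 8.36%, and 39700 of 456109, or 8.70%, in Lsh-/- fibroblasts. In embryos the shares were 9.20% of 855043 in WT and 9.23% of 808168 in Lsh-/-. Most loci were close to the limit of detection. A locus without a read is not listed, and the libraries listed 7671, 6186, 8335 and 7139 members with a median of 2, 2, 3 and 4 counts. A single count was all that 38.8%, 34.8%, 20.6% and 14.5% of these had. In every library 2582 members were listed, and 6706 were listed in 1 library only.

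Counts were scaled by factors from the flanking intervals of LINE-1 loci. On this scale the summed counts of members gave a log2 ratio of Lsh-/- to WT of -0.05 (95% interval -0.07 to -0.03, counting error only) in fibroblasts and -0.02 (-0.04 to -0.01) in embryos. Over all LINE loci the ratios were -0.11 and -0.03. The sum over L1MA and L1MB elements was thus slightly lower in Lsh-/- on this scale. In fibroblasts the sign depended on the scale, and the ratio was 0.06 with the total of the LINE table and 0.62 with the total of all 6 tables as library size. In embryos it was 0.00 with the former.

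Position in genes separated the members in level. Of all members, 10693, or 74.1%, lay in introns of protein-coding genes and 2987, or 20.7%, outside any gene of GENCODE vM1. Only 189, or 1.31%, overlapped a UTR exon of a protein-coding gene, 18 a coding exon and 221 another exon. These 189 loci had 17.5%, 20.1%, 17.5% and 18.4% of all member counts in the 4 libraries. Per kb of element, the UTR loci had 136, 155, 267 and 267 counts, the intronic loci 8.16, 6.94, 16.1 and 14.9, and the loci outside genes 6.10, 8.83, 11.2 and 11.4. UTR loci were thus over 10 times as dense in counts as intronic loci in each library. Loci outside genes held 14.5% of the member counts of WT fibroblasts and 21.2% of those of Lsh-/- fibroblasts, where intronic loci held 63.0% and 53.9%. In embryos these shares were closer between the genotypes, at 13.501% and 14.6% outside genes and 62.96% and 61.6% in introns. Intronic members stood more often against than along the gene, with 7140 on the opposite and 3446 on the same strand, or 67.4% opposite. The share was 66.2% over intronic LINE loci in general.

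In fibroblasts, 1490 of the 9968 members listed in either library had at least 10 counts in the pair and are called measured here. Their median log2 fold change of Lsh-/- over WT was -0.05 (95% interval over loci -0.05 to 0.02), with a small prior count added to each value, and 0.09 over the 14058 measured LINE loci. With counts of 0 set to a floor of 3 counts it was -0.05 again. A log2 fold change above 1, which is over 2 times higher, was found at 255 members or 17.1%, where 24.1% of all measured LINE loci passed. Below -1 were 283 or 18.99%, where 18.2% of all passed. The other 952 members, or 63.9%, lay within 1. Above 5, the limit drawn in the study, were 38 members or 2.55%, where 8.74% of all LINE loci passed, and below -5 were 14 or 0.94%, where 1.04% of all passed. Each of the 38 had 0 counts in WT and each of the 14 had 0 in Lsh-/- fibroblasts. With a prior count of 1 the 38 became 13, and with the floor of 3 counts 3. Scaling by the total over all 6 tables raised every log2 value in fibroblasts by 0.68. It placed 549 members above 1 and 118 below -1, so that 82.3% instead of 47.4% of the loci past 1 were higher.

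In embryos, 2860 of 10881 listed members were measured. Their median was -0.05 (-0.11 to 0.05), against 0.04 over 24989 LINE loci, and again -0.05 with zeros at the floor. Above 1 were 593 members or 20.7%, where 21.3% of all LINE loci passed, and below -1 were 602 or 21.0%, where 20.7% passed. Above 5 were 59 or 2.06%, where 3.09% passed, and below -5 were 102 or 3.57%, where 2.89% passed. All 59 had 0 counts in WT and all 102 had 0 in Lsh-/- embryos. None had many reads, with a median of 12 and at most 33 counts in Lsh-/- for the 59, and a median of 11 and at most 47 counts in WT for the 102. With the floor of 3 counts, 0 members passed 5 in either direction. The other scalings tried moved the log2 values in embryos by between -0.05 and 0.03.

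**Figure D1:**
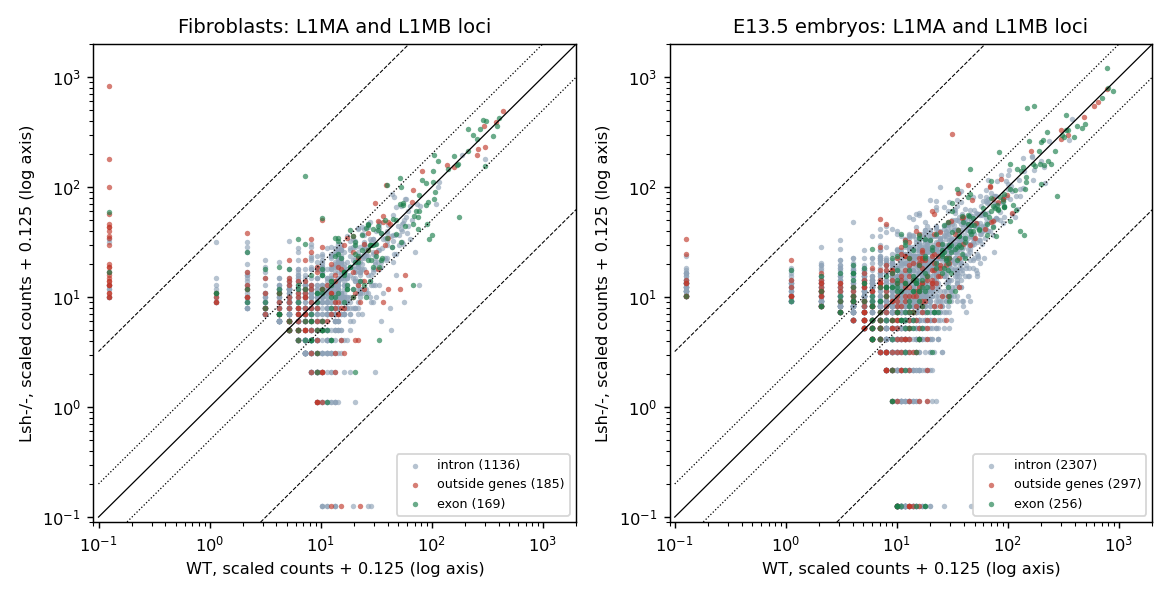
Scaled counts plus a small prior count of each measured L1MA and L1MB locus in WT (x axis, log) and Lsh-/- (y axis, log) libraries, coloured by position in genes, with the number of loci in the key. The solid line marks equal counts, dotted lines a log2 fold change of 1 and -1 and dashed lines 5 and -5; the loci at the left edge had 0 counts in WT, and in fibroblasts 26 of the 38 above 5 lay outside genes.

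Older LINE-1 groups had like shares, and the young ones differed. L1MC and L1MD elements, of similar or greater age, had 16.3% of 1131 measured loci above 1 and 2.03% above 5 in fibroblasts, and 20.5% and 2.45% of 2247 in embryos. Of the Lx7 to Lx10 loci, rodent LINE-1 of intermediate age, 21.3% of 2156 were above 1 and 7.42% above 5 in fibroblasts. Of L1Md loci, 45.3% of 941 were above 1 and 27.7% above 5 in fibroblasts, with a median of 0.70, and 29.5% and 7.39% of 1448 in embryos. Shares below -1 lay between 17.2% and 21.5% in every group of both tissues.

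**Figure D2:**
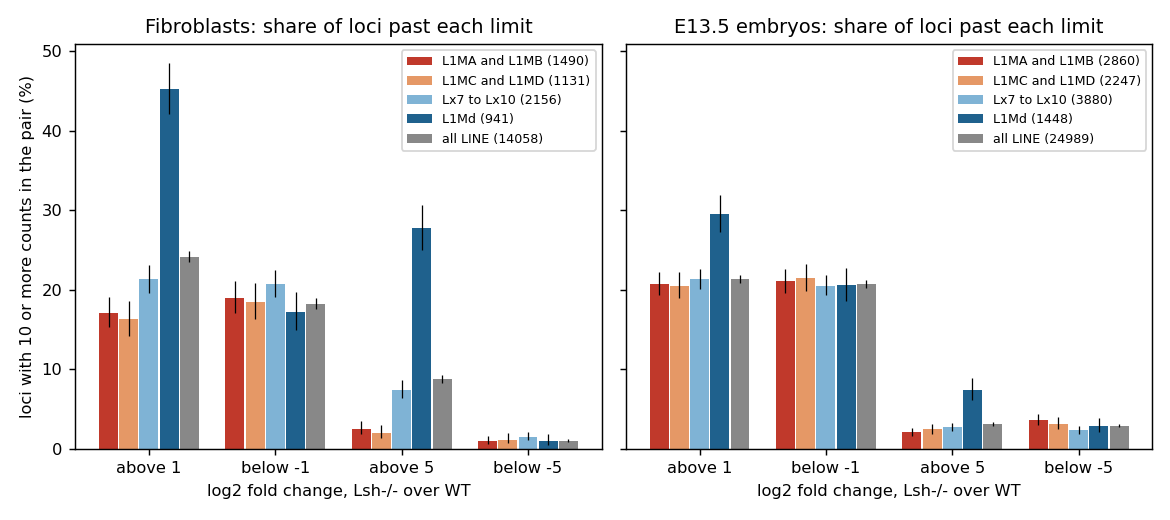
Share of measured loci (y axis, %) past each limit of log2 fold change (x axis) for L1MA and L1MB, for 3 other LINE-1 groups and for all LINE loci, with the number of measured loci in the key. Bars show the share and lines its 95% Wilson interval over loci within 1 pair of libraries; L1MA and L1MB reached 2.55% above 5 in fibroblasts and L1Md 27.7%.

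The shares past 1 were lower at loci with more reads, except that the share above 1 in fibroblasts was higher at 100 or more than at 50 to 99 counts. In fibroblasts 20.9% of the 793 members with 10 to 19 counts were above 1 and 24.8% below -1, whereas 4.69% and 7.03% of the 128 members with 50 to 99 counts were. In embryos 28.9% and 26.9% of 1349 members passed with 10 to 19 counts and 9.91% and 9.31% of 333 with 50 to 99. At 100 or more counts, 8 of 82 members were above 1 and 3 below -1 in fibroblasts, and 14 and 7 of 196 in embryos. Of all LINE loci with 100 or more counts, 16.4% were above 1 and 4.64% below -1 in fibroblasts and 4.25% and 3.77% in embryos, beside 9.76% and 3.66% and 7.14% and 3.57% of members.

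**Figure D3:**
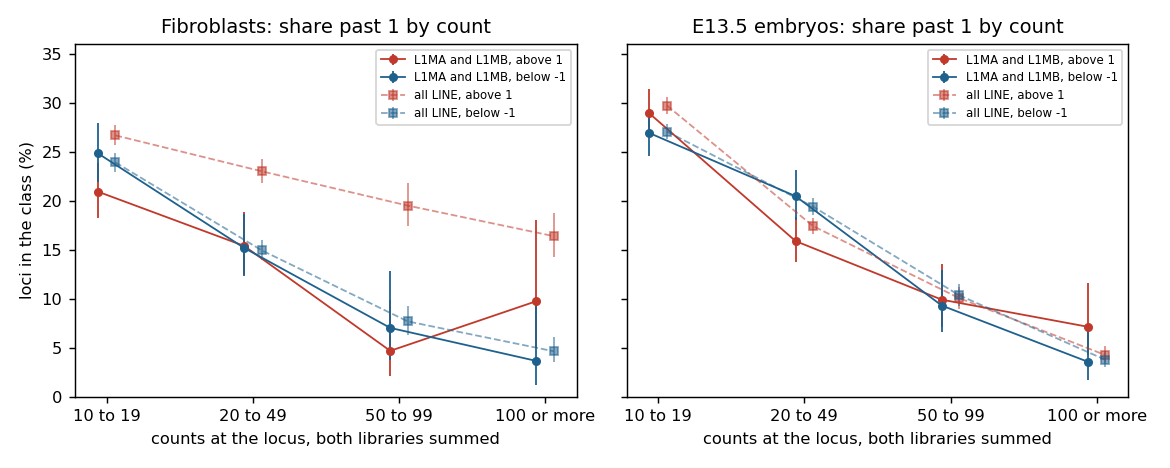
Share of measured loci (y axis, %) with a log2 fold change above 1 (red) or below -1 (blue) by the summed count at the locus (x axis), for L1MA and L1MB (solid) and all LINE loci (dashed). Lines through points are 95% Wilson intervals over loci; the share of L1MA and L1MB above 1 in embryos went from 28.9% at 10 to 19 counts to 7.14% at 100 or more.

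Together, the 38 members above 5 had 1915 counts in the Lsh-/- line and none in the WT line. The values that chose them are a description of this pair. Their counts in Lsh-/- ran from 10 to 843 with a median of 17, and 13 of them had more than 30. Outside genes lay 26 of the 38, or 68.4%, beside 12.4% of all measured members. Some of the 38 are neighbouring fragments, such as the L1MA4 elements at chr9:97181154-97181909 and chr9:97181979-97182392. Shares and intervals over loci count each of these as separate. Of the 185 measured members outside genes, 14.1% were above 5, beside 0.54% of 1110 in introns of protein-coding genes. The same classes of all LINE loci had 34.4% and 1.48%. In embryos 21 of the 38 had no count in either library. Of the 11 measured there, 6 were above 1, beside 20.7% of all members measured in embryos. The 6 include both L1MA4 fragments just named, and no such share was worked out over all LINE loci.

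**Figure D4:**
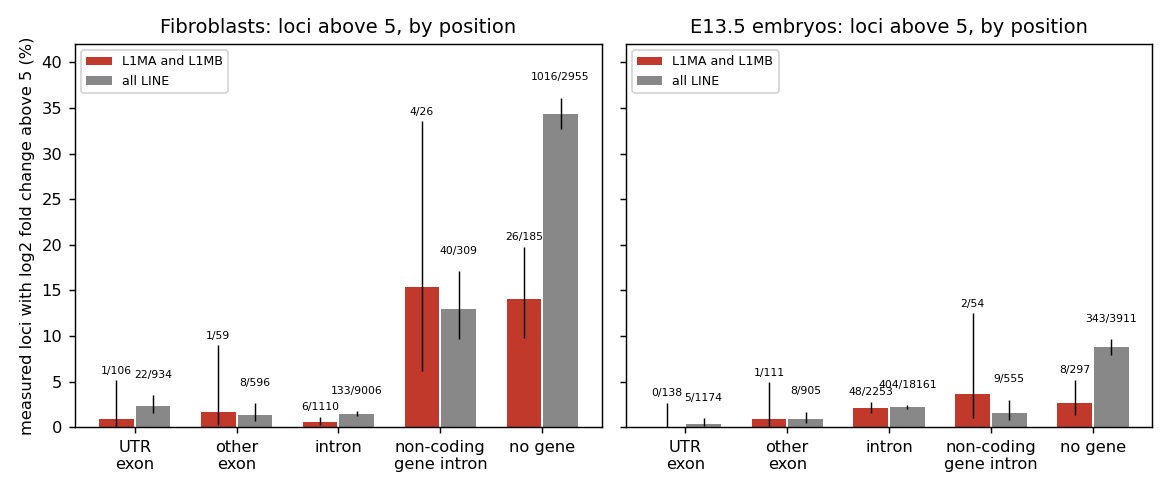
Share of measured loci with a log2 fold change above 5 (y axis, %) by position in genes (x axis), for L1MA and L1MB (red) and all LINE loci (grey), with the number above 5 and the number measured over each bar and 95% Wilson intervals over loci. In fibroblasts 14.1% of L1MA and L1MB loci outside genes were above 5 and 34.4% of all LINE loci there; in embryos the shares were 2.69% and 8.77%.

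The locus with the largest difference was an L1MA5 element at chr8:30634382-30635459, 1078 bp wide on the + strand and outside genes, 304571 bp from Unc5d, the nearest protein-coding gene. It had 0, 843, 0 and 0 counts, and so was seen in Lsh-/- fibroblasts alone. With WT set to the floor of 3 counts, the element was 272-fold higher in Lsh-/- fibroblasts. By the lower limit of its interval for counting error it was at least 220.8-fold higher. Each later fold given as "at least" is such a limit. It was also among the 3 members with the highest total in fibroblasts. An LTR locus above 5, an LTR48, lay 3002 bp away, and the downstream interval of the element had 0 and 106 counts in the fibroblast pair.

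Next came an L1MA4 element at chr9:97181979-97182392, also outside genes, with 0, 182, 32 and 301 counts. It was at least 47.3-fold higher in Lsh-/- fibroblasts and 9.77-fold higher (6.77 to 14.5) in Lsh-/- embryos. A second L1MA4 fragment beside it, at chr9:97181154-97181909, had 0, 47, 21 and 59 counts. Both lay on the - strand within 3 kb of an RLTR44A locus above 5. An L1MB8 element at chr16:89455810-89456652 outside genes had 0, 101, 0 and 1 counts, at least 26.0-fold higher in Lsh-/- fibroblasts, with an IAPLTR1_Mm locus above 5 at 7298 bp. In all 3 of these fibroblast loci no read came from the WT line.

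Many of the loci above 5 had neighbours above 5 in the same pair of libraries. Within 10 kb of 12 of the 38 members lay an LTR locus above 5, and within 10 kb of 22 another LINE locus above 5 that is neither L1MA nor L1MB. One or the other was near 26 of 38, or 68.4%, beside 3 of the 952 members within 1, or 0.32%, and 0 of the 283 below -1. In embryos 6 of the 59 members above 5 had such a neighbour and 33 of the 1665 within 1. Neighbours were counted in the same libraries and for members only, so no share over all LINE loci above 5 stands beside these. No test was made.

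The 14 members below -5 in fibroblasts had at most 28 counts in WT, and 10 lay in introns of protein-coding genes. These 10 were 0.90% of 1110 measured intronic members, beside 0.94% of all measured members. Chromosome 15 held 5 of the 14, or 9.26% of its 54 measured members, beside 0.94% of all measured members. It is named because this share was the highest of all chromosomes. The share over all LINE loci of chromosome 15 was not worked out. Of the 5, those at chr15:60924743-60925617, chr15:61005238-61005714 and chr15:62023917-62025244 lie in 1 stretch and may not be independent. The largest of the 14 was an L1MB8 element at chr15:8628463-8628792 in an intron of Slc1a3, a glutamate transporter gene. It stood against the gene's strand, had 28, 0, 14 and 23 counts and was at least 7.33-fold lower in Lsh-/- fibroblasts. Its upstream interval had 52 and 0 counts in fibroblasts and 59 and 62 in embryos. An L1MB8 element at chr15:60924743-60925617 outside genes had 22, 0, 0 and 0 counts, at least 5.66-fold lower. Second by counts in WT was an L1MB8 element at chrX:166420548-166420689 in an intron of Mid1, which encodes a microtubule-bound ubiquitin ligase. It had 26, 0, 27 and 0 counts, at least 6.77-fold lower in fibroblasts and at least 6.58-fold lower in embryos. This locus, listed on chromosome X, was thus at 0 in both Lsh-/- libraries. Its upstream interval had 6, 18, 16 and 104 counts and its downstream interval 16, 9, 20 and 23.

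Among members with a log2 fold change from 1 to 5 in fibroblasts, those with the most counts are given next. In the 3′ UTR of Parp3, a member of the poly(ADP-ribose) polymerase family, an L1MA6 element at chr9:106372604-106373012 on the opposite strand had 51, 123, 281 and 81 counts. It was 2.34-fold higher (1.67 to 3.30) in Lsh-/- fibroblasts and 3.34-fold lower (2.60 to 4.33) in Lsh-/- embryos. An L1MB7 element in the 3′ UTR of the zinc-finger gene Zfp329, at chr7:13390540-13391059, had 39, 107, 172 and 160 counts, 2.66-fold higher (1.83 to 3.94) in fibroblasts and 0.966 times WT (0.774 to 1.20) in embryos. An L1MB8 element outside genes, at chr6:31011089-31011447, had 38, 106, 7 and 13 counts and was 2.70-fold higher (1.85 to 4.02) in fibroblasts. Of these 3, the Parp3 element was the one whose ratios excluded 1 in opposite directions.

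Between -1 and -5 in fibroblasts, the 3 members with the most counts were exonic. An L1MB7 fragment of 69 bp in the 3′ UTR of Tmcc3, at chr10:94051321-94051389, had 172, 54, 81 and 68 counts and was 3.29-fold lower (2.41 to 4.55). An L1MB3 element at chr11:53940127-53940320, over an exon of a P4ha2 transcript without coding sequence there, had 98, 37, 56 and 40 counts and was 2.74-fold lower (1.86 to 4.11). P4ha2 encodes a subunit of the enzyme that hydroxylates collagen prolines. An L1MA5 element at chrX:166414014-166414404, over an exon of the non-coding gene G530011O06Rik and inside Mid1, had 92, 34, 63 and 56 counts and was 2.79-fold lower (1.87 to 4.27). In embryos the intervals of all 3 ratios included 1.

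Beside the L1MA5 element on chromosome 8, the members with the most counts in a tissue had reads in all 4 libraries. In the 3′ UTR of 6330578E17Rik, an L1MB2 element at chr1:37474464-37474793 had 396, 429, 898 and 735 counts. Its neighbour in the same UTR, the L1MB2 at chr1:37473685-37474289 shown by its CCGG above, had 286, 413, 819 and 775. An L1MA4 element outside genes at chr17:32903912-32904517, 3663 bp from Zfp871, had 427, 499, 664 and 584 counts. The ratio at this L1MA4 was 1.13 (0.992 to 1.29) in fibroblasts and 0.913 (0.816 to 1.02) in embryos, so both intervals included 1. In the 3′ UTR of Scd1, which encodes a stearoyl-CoA desaturase, an L1MA8 fragment of 92 bp at chr19:44472158-44472249 had 297, 159, 796 and 1198 counts. It was 1.93-fold lower (1.59 to 2.35) in Lsh-/- fibroblasts and 1.56-fold higher (1.43 to 1.71) in Lsh-/- embryos.

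In embryos the members with the most counts among those higher in Lsh-/- included 3 adjacent L1MA6 fragments in the 3′ UTR of Pmaip1, a pro-apoptotic gene of the BCL2 family also known as Noxa. They lie on chromosome 18 on the strand of the gene. The one at chr18:66624188-66624489 had 52, 101, 176 and 540 counts and was 3.19-fold higher (2.68 to 3.798) in Lsh-/- embryos. The one at chr18:66624540-66624806 had 51, 71, 152 and 515 counts and was 3.52-fold higher (2.93 to 4.24) in embryos. In fibroblasts these 2 were 1.88-fold (1.33 to 2.68) and 1.35-fold (0.928 to 1.97) higher. The smallest, at chr18:66623995-66624092, had 18, 41, 84 and 206 counts, 2.55-fold higher (1.97 to 3.32) in embryos and 2.21-fold higher (1.24 to 4.08) in fibroblasts. All 3 had ratios of Lsh-/- to WT above 1 in both tissues, though the fibroblast interval at chr18:66624540-66624806 included 1. As parts of 1 UTR the 3 are not independent. Together with the chromosome 9 L1MA4 element above, the first and second were the most counted members between 1 and 5 in embryos.

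Among members lower in embryos, an L1MB4 element in the 3′ UTR of Rrm1, the large subunit of ribonucleotide reductase, at chr7:109617861-109618164, had 66, 47, 142 and 36 counts and was 3.799-fold lower (2.62 to 5.64). An L1MB7 element at chr19:59502496-59502807, over an exon of Emx2os, the antisense transcript of the homeobox gene Emx2, had 67, 13, 131 and 39 counts. It was 5.32-fold lower (2.91 to 10.5) in fibroblasts and 3.24-fold lower (2.25 to 4.75) in embryos. The Parp3 element described above had the most counts of the members between -1 and -5 in embryos. Whether the counts used strand is not stated, so reads of overlapping genes on opposite strands cannot be told apart.

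The most counted members above 5 in embryos had few reads. An L1MB5 element at chr8:89332086-89332340 outside genes had 0, 11, 0 and 33 counts, at least 8.78-fold higher in embryos and at least 2.43-fold higher in fibroblasts. An L1MB8 element at chr6:135260525-135261190, 159 bp from Pbp2, had 30, 73, 0 and 24 counts, at least 6.25-fold higher in Lsh-/- embryos and 2.36-fold higher (1.52 to 3.73) in fibroblasts. An L1MA6 element in an intron of Pvt1, a long non-coding RNA gene beside Myc, at chr15:62085494-62085744, had 6, 3, 0 and 23 counts, at least 5.97-fold higher in embryos. Below -5, an L1MA9 element in an intron of 4930422G04Rik at chr3:127298453-127298629 had 12, 3, 47 and 0 counts, at least 11.8-fold lower in Lsh-/- embryos. The Mid1 L1MB8 element followed. The third place was tied at 20 counts in WT and 0 in Lsh-/- embryos between an L1MA6 element in an intron of Alms1, a basal body gene, at chr6:85650489-85651054, and an L1MA5 element in an intron of Zfp658. Of the 59 members above 5, 48 lay in introns and 8 outside genes, and of the 102 below -5, 82 lay in introns. The 48 were 2.13% of 2253 measured intronic members and the 8 were 2.69% of 297 outside genes, beside 2.06% of all measured members. The 82 were 3.64% of the intronic members, beside 3.57% of all.

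**Figure D5:**
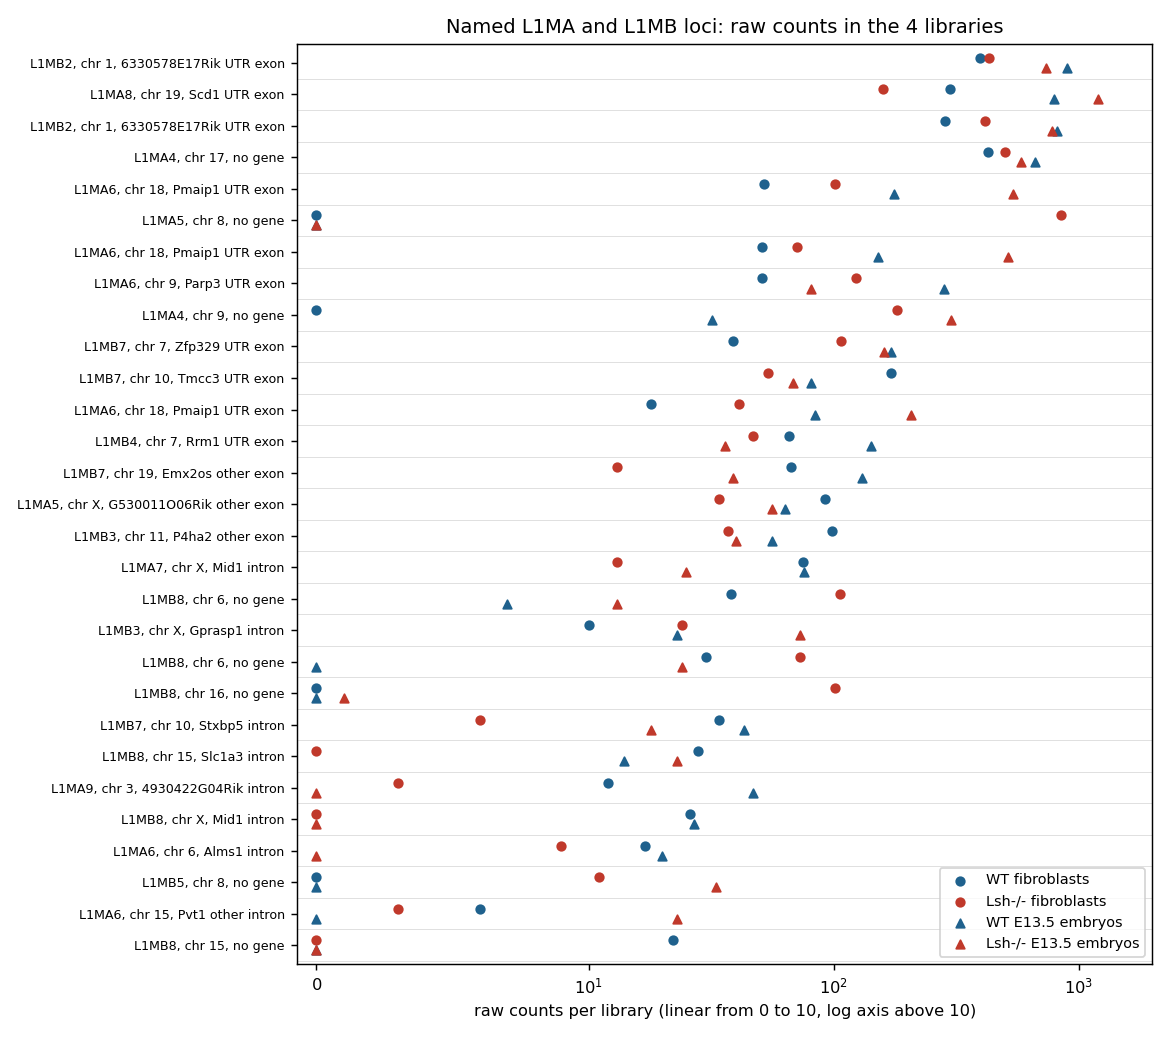
Raw counts (x axis, linear from 0 to 10 and log above) in the 4 libraries at the L1MA and L1MB loci described by their counts, each row 1 locus with its chromosome, host gene and position. Circles are fibroblasts and triangles embryos, blue WT and red Lsh-/-, and points at 0 can cover each other; the L1MA5 on chromosome 8 had 843 counts in Lsh-/- fibroblasts and 0 in the other 3 libraries.

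In both tissues 1247 members were measured. Of these 604 lay within 1 in both. Above 1 in both were 31 and below -1 in both 49, while 31 were above in fibroblasts and below in embryos and 37 the reverse. These are 2.49%, 3.93%, 2.49% and 2.97%, and of the 11016 LINE loci measured in both tissues 3.604%, 3.50%, 2.98% and 2.84% fell in the same classes. By total count, the leading members above 1 in both were the chromosome 9 L1MA4 element, the smallest Pmaip1 fragment and an L1MB3 element in an intron of Gprasp1 at chrX:132310250-132310612. Gprasp1 encodes a sorting protein for G-protein-coupled receptors. The L1MB3 element had 10, 24, 23 and 73 counts, 2.32-fold higher (1.07 to 5.45) in fibroblasts and 3.30-fold higher (2.04 to 5.52) in embryos. The leading members below -1 in both were the Emx2os element, an L1MA7 element in an intron of Mid1 at chrX:166415454-166415730 and an L1MB7 element in an intron of Stxbp5, the gene of the syntaxin-binding protein tomosyn, at chr10:9483450-9484649. The L1MA7 element had 75, 13, 76 and 25 counts and was 5.96-fold lower (3.28 to 11.7) in fibroblasts and 2.93-fold lower (1.84 to 4.80) in embryos. The L1MB7 element had 34, 6, 43 and 18 counts, 5.85-fold lower (2.43 to 17.1) and 2.30-fold lower (1.299 to 4.24). Of the 3 Mid1 members described, 2 were thus lower in both tissues by over 2 times.

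The tables also hold an interval on either side of each element, at a distance of 10 kb. The study describes such intervals for LTRs, as wide as the element, to ask whether reads come from longer transcripts. For L1MA and L1MB the width was read from the files. All 495 repeats with at least 20 counts that lay wholly from 10 to 11 kb from a member had no more counts than the interval, also the 317 beyond the width of the element, beside 85.0% of 628 from 11 to 12 kb. The intervals are therefore taken as 1 kb wide, from 10 to 11 kb. In this check, upstream was the side of lower and downstream the side of higher chromosome coordinate, whatever the strand of the element. Both words are used in this sense throughout, so for elements on the - strand they are reversed. In fibroblasts the median log2 fold change was 0.07 (0.05 to 0.09) over 6371 measured upstream intervals of members and 0.04 (0.01 to 0.07) over 6530 downstream ones. Above 1 were 988 upstream intervals or 15.5%, where 18.6% of the upstream intervals of all LINE loci passed, and below -1 were 900 or 14.1%, where 13.6% passed. Above 5 were 212 or 3.33%, where 6.51% passed, and below -5 were 68 or 1.07%, where 1.07% passed. Downstream, 994 or 15.2% were above 1, where 19% passed. Above 5 were 231 downstream intervals or 3.54%, where 6.62% passed, and below -5 were 84 or 1.29%, where 1.08% passed. Members thus had a smaller share of intervals above 5 than LINE loci in general on both sides.

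In embryos the medians were -0.03 (-0.04 to -0.01) over 8891 upstream and -0.02 (-0.04 to -0.00) over 8998 downstream intervals. There, 1178 upstream intervals or 13.2% were above 1, where 14.2% passed, and 1298 or 14.6% below -1, where 14.5% passed. Above 5 were 123 or 1.38%, where 1.94% passed, and below -5 were 158 or 1.78%, where 1.73% passed. Downstream, 1224 or 13.6% were above 1, where 14.4% passed, 122 or 1.36% above 5, where 2.01% passed, and 153 or 1.70% below -5, where 1.62% passed.

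Around elements past 1, flanking intervals past 1 in the same direction took a larger share in fibroblasts than in embryos. Next to the 255 members above 1 in fibroblasts were 275 measured intervals, of which 25.5% were above 1 and 5.82% below -1. Next to the 283 members below -1 were 346, of which 6.07% were above 1 and 21.97% below -1. Next to members within 1, 9.04% of 1128 intervals were above 1 and 9.04% below -1. Around the 38 members above 5, 21 of 29 measured intervals were above 1, and their median was 7.31. In embryos, 12.4% of 758 intervals next to members above 1 were above 1 and 9.50% below -1, and 8.63% and 13.45% of 788 next to members below -1 were. These shares were worked out for members only, so none over all LINE loci stands beside them. The difference between the tissues was not tested.

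The 16 subfamily names varied in number and in sum. L1MB7 had the most listed loci, 2102, then L1MB8 with 1744, L1MB3 with 1442 and L1MA4 with 1336, and L1MA10 the fewest, 125. In fibroblasts the log2 ratio of summed counts ran from -0.30 for L1MB4 to 0.40 for L1MA5. The L1MA5 sum of 2003 counts in WT and 2733 in Lsh-/- fibroblasts includes the 843 counts of the chromosome 8 locus. In embryos it ran from -0.14 for L1MA7 and L1MB5 to 0.20 for L1MA6, which had 5364 counts in WT and 5942 in Lsh-/- embryos with the 3 Pmaip1 fragments included. Above 5 in fibroblasts, L1MA4 gave the most loci, 6 of 114 measured or 5.26%, where 8.74% of all LINE loci passed. By share L1MA10 was highest with 2 of 8, while L1MA8 gave 0 of 54 and L1MB4 0 of 72.

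By host gene, 2601 members measured in either tissue lay in 1653 protein-coding genes, 1099 of which had 1 such member and 205 at least 3. Gprasp1 on the X chromosome had 11, of which 10 stood against its strand, with 122, 172, 337 and 351 counts in sum. The log2 ratio of this sum was 0.45 (0.11 to 0.80) in fibroblasts and 0.11 (-0.11 to 0.33) in embryos. The 10 members in 2610029G23Rik, also on the X chromosome, had 191, 125, 156 and 164 counts and a log2 ratio of -0.66 (-0.995 to -0.33) in fibroblasts and 0.13 (-0.20 to 0.45) in embryos. Exoc5, an exocyst subunit, held 9 with 54, 21, 157 and 129 counts, and the log2 ratio was -1.41 (-2.21 to -0.66) in fibroblasts and -0.23 (-0.58 to 0.12) in embryos. The 9 members in Phf2, a histone demethylase gene, had 22, 26, 61 and 59 counts. Ehmt1, which encodes a histone methyltransferase, and 1110028C15Rik were tied at 8, with 46, 45, 109 and 120 counts in the first and 40, 43, 70 and 94 in the second. In these last 3 genes the interval of the log2 ratio included 0 in fibroblasts, and for 1110028C15Rik it was 0.02 to 0.95 in embryos. All 9 members in Exoc5 and in Phf2 and all 8 in Ehmt1 stood against the strand of the gene.

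Members that hold a CCGG and members that do not are set side by side here. In fibroblasts 18.2% of 137 measured members with a site were above 1 and 19.7% below -1, beside 17.0% and 18.9% of 1353 without. In embryos 19.8% of 243 with a site were above 1 and 18.5% below -1, beside 20.8% and 21.3% of 2617 without. Above 5 in fibroblasts were 4 of the 137 or 2.92% and 34 of the 1353 or 2.51%, and below -5 were 4 or 2.92% and 10 or 0.74%. In embryos 6 of the 243 and 53 of the 2617 were above 5, and 10 or 4.12% and 92 or 3.52% below -5. The shares below -5 in fibroblasts thus differed most, with 4 loci on 1 side. No test was made of these splits.

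Between the tissues, members had more counts per scaled library in embryos than in fibroblasts. The median log2 ratio of embryos to fibroblasts was 0.60 (0.50 to 0.66) over 2308 members measured in the WT pair and 0.57 (0.50 to 0.67) over 2215 in the Lsh-/- pair, beside 0.58 and 0.52 over all LINE loci. In the WT pair 904 members or 39.2% were above 1, where 39.3% of all LINE loci passed, and 281 or 12.2% below -1, where 13.3% passed. Above 5 were 176 or 7.63%, where 9.16% passed, and below -5 were 16 or 0.69%, where 1.13% passed. In the Lsh-/- pair 879 or 39.7% were above 1, where 38.9% passed, and 325 or 14.7% below -1, where 19.1% passed. Above 5 were 217 or 9.80%, where 10.1% passed, and below -5 were 37 or 1.67%, where 5.19% passed. Tissue, culture and library cannot be told apart in this comparison.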

How the data were processed

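RNA from 1 library each of WT and Lsh-/- fibroblasts and WT and Lsh-/- E13.5 embryos was analysed. Per the study's methods and the labels, the authors made paired-end dUTP libraries, mapped reads to mm9 with TopHat 1.4.0 without mismatches, kept unique hits and joined them to the repeat annotation. They deposited raw counts, in 6 tables for each library, of reads on LINE and LTR loci and on intervals beside them. The study calls the libraries strand-specific mRNA-seq, whereas the labels give total RNA. Whether a pair counted as 1 or 2 and whether the counting used strand are not stated. Unlisted loci were set to 0.

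Starts, deposited from 0, are printed from 1. Pairs were scaled by TMM (edgeR 4.0.16, R 4.3.3) over intervals flanking LINE-1 loci. A prior count of 0.125 and a minimum of 10 counts in the pair were used (Python 3.11.15, NumPy 2.4.6, pandas 2.3.3). Medians have 95% order-statistic intervals, ratios exact conditional Clopper-Pearson intervals (SciPy 1.17.1). DESeq2 1.42.0 gave alternative size factors. The scripts were tested on simulated data. With 1 library per group no test was made. Genes came from GENCODE vM1 and sequence from NCBIM37 (mm9). For 9 members on unplaced chromosomes neither was used.

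Named loci, in each tissue, are the 3 with the largest count among all members and among those above 5, below -5, from 1 to 5 and from -5 to -1. Added are the 3 with the largest total above 1 in both tissues, the 3 below -1 in both, the 3 widest, and the 5 host genes with the most measured members, ties included. Members, lists and rules were chosen with earlier results of these data known.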

Additional observations from a re-analysis of the deposited data

Results flagged for a closer look

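With at least 50 counts in each pair of libraries, 178 members could be compared between the tissues, and 152 of them lay within 1 in both. Past 1 in opposite directions were 2. The L1MA6 element in the 3′ UTR of Parp3, at chr9:106372604-106373012, had a log2 fold change of 1.22 in fibroblasts and -1.74 in embryos. An L1MB8 element outside genes at chr18:37643200-37644021 had 51, 12, 44 and 103 counts in WT fibroblasts, Lsh-/- fibroblasts, WT embryos and Lsh-/- embryos, and a log2 fold change of -2.12 in fibroblasts and 1.28 in embryos. This L1MB8 element was chosen after its values were seen. The difference between the tissues was not tested at either locus, since each group is 1 library.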

How the results depend on the processing

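No paired analysis was possible because each group holds 1 library, and none could be left out. Of 142 alternative values of 18 summary results, 80 stayed within 1.5 times a count or within the interval of a value, and 62 moved. Scaling by the total of the LINE element table shifted fibroblast log2 values by 0.11 and by the total of all 6 tables by 0.68. The cause of moves was not tested unless fewer loci, another prior or another scaling is what the alternative consists of. Of 228 values at named loci, 214 stayed within their intervals and 14, all in fibroblasts with the total of all 6 tables, moved. None changed sign at a locus past 1.

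In fibroblasts, members above 1 (255) became 549 with the total of all 6 tables, 2877 with all listed loci and 14 with at least 50 counts. Those below -1 (283) became 118, 4581 and 12. Those above 5 (38) became 13 with a prior of 1, 3 with the floor of 3 counts, 288 with all listed loci and 5 with at least 50 counts. Those below -5 (14) became 0, 0, 403 and 0. The median (-0.05) was -0.046 with the floor, 0.066 with the element total, 0.63 with the 6-table total, -0.65 over all listed loci, 0.033 with at least 50 counts and -0.11 with DESeq2 factors over intervals with at least 10 counts in both libraries, an alternative chosen after seeing the data. The log2 ratio of sums (-0.05) was 0.059, 0.62 and -0.0079 with the element total, the 6-table total and the planned DESeq2 factors. With these 3 scalings the upstream median (0.07) was 0.18, 0.75 and 0.12 and the downstream median (0.04) 0.15, 0.72 and 0.087. Over all listed intervals they were -0.046 and -0.053, and with at least 50 counts 0.10 and 0.088.

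In embryos, members above 1 (593) became 3621 with all listed loci and 47 with at least 50 counts, and those below -1 (602) 4572 and 38. Those above 5 (59) became 1 with a prior of 1, 0 with the floor, 879 with all listed loci and 0 with at least 50 counts, and those below -5 (102) 1, 0, 1031 and 0. The median (-0.05) was -0.33 over all listed loci. The ratio of sums (-0.02) was 0.0043 with the element total and -0.077 with DESeq2 factors. The upstream median (-0.03) was 0.00065, -0.081 and, over all listed intervals, -0.071, and the downstream median (-0.02) 0.0073, -0.074 and -0.086.

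The median of embryos over fibroblasts in WT (0.60) was 0.46 with the element total, 1.11 with the 6-table total, 0.29 over all listed loci and 0.42 with at least 50 counts, and in Lsh-/- (0.57) 0.39, 0.45, 0.74 and 0.38. Leaving out chromosomes X and Y, or loci over exons, a further alternative chosen after seeing the data, kept each count within 1.5 times and each value within its interval. DESeq2 factors over all intervals equal 1 in each of the 4 libraries when the genotypes are compared.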
